A study of Mus musculus with 4 samples.

Results

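This report is about 6 microRNAs (miRNAs) of mouse skin that are known for their part in fat cells and in metabolism: mmu-miR-103, mmu-miR-107, mmu-miR-193b, mmu-miR-365, mmu-miR-378 and mmu-miR-378*, written below without the species prefix. They were chosen by name, with earlier results of these data known, and are 6 of the 710 mature mouse miRNAs on the array. Total RNA came from abdominal skin of female C57BL/6JNarl mice of 6 to 8 weeks. One group had received shikonin, a plant naphthoquinone, at 10 μg/μl in 100 μl of acetone on the skin 24 hr earlier, and the other 100 μl of the solvent acetone alone. There were 2 arrays of shikonin-treated and 2 of acetone-treated skin. The array of each sample is called here by its treatment and replicate number, and replicates are described by the study as biological, without a statement that they were different animals. The p-values therefore cover the spread among these arrays alone, which may be technical in some part.

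A miRNA guides a silencing complex to messenger RNAs that pair with its seed, the bases 2 to 8 from its 5′ end. Fat cells lie in the subcutaneous layer of mouse skin and around the hair follicles, and their formation from precursor cells is driven by the factors Pparg and Cebpa. miR-103 and miR-107 restrain insulin signalling in mouse liver and fat through caveolin-1, and they are made from introns of the pantothenate kinase genes, whose enzymes start the synthesis of coenzyme A. miR-193b and miR-365 are made from neighbouring genes that are active in brown fat, where miR-193b favours brown over muscle differentiation. miR-378 and miR-378* are the 3p and the 5p arm of one hairpin in Ppargc1b, the gene of a coactivator of mitochondrial and lipid genes. None of the 6 is made by fat cells alone.

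The mature sequences show which of these miRNAs can share targets and which probes could be hard to tell apart. Sequences from RefSeq (GRCm38.p6) were used for 4 of the 6, and these 4 carried 3 different seeds, printed in capitals. miR-378 and miR-378* were left out of this comparison, which does not mean that RefSeq lacks them. miR-193, a relative of miR-193b, and miR-16 are shown for comparison.
miR-103: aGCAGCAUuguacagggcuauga
miR-107: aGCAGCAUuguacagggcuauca
miR-16: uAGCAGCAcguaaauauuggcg
miR-193b: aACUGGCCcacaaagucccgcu
miR-193: aACUGGCCuacaaagucccagu
miR-365: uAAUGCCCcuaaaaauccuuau
miR-103 and miR-107 have the same seed and the same first 21 bases, and the only difference between them is G22C, counted from the 5′ end with the base of miR-103 first. The seed of miR-16 stands in both of them, starting at base 1, so the 2 seeds overlap with an offset. miR-193b and miR-193 have the same seed and differ at 3 bases beyond it. miR-365 shares its seed with no other member printed.

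The same mature miR-103 comes from 2 genes, Mir103-2 within Pank2 on chromosome 2 and Mir103-1 within Pank3 on chromosome 11, whereas Mir107 lies within Pank1 on chromosome 19. Mir193b and Mir365-1 are next to each other on chromosome 16, and a second gene, Mir365-2 on chromosome 11, gives the same mature miR-365. The array cannot tell these gene copies apart.

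Each array carried 8 spots for each miRNA, and the spot median was taken as its raw intensity. Background was read from 35 miRNAs typical of brain, liver, pancreas, embryonic stem cells and testis, and a miRNA was taken to be above it when its own median lay over 3 MAD (median absolute deviations) higher. That background was 332 and 424 on the shikonin arrays and 308 and 368 on the acetone arrays, and 234 and 216 of the 710 miRNAs on the shikonin arrays and 224 and 247 on the acetone arrays were above it. Of all miRNAs, 158 were above it on all 4 arrays and 410 on none. Replicate arrays correlated with Pearson's r of 0.934 (shikonin) and 0.931 (acetone) over all miRNAs, and acetone replicate 1 lay farthest from the shikonin arrays, with r of 0.771 and 0.786. Limma called 2 miRNAs higher (0.282% of 710), miR-574-3p and miR-197, and 0 lower at an adjusted p under 0.05, while 47 were higher and 78 lower at an unadjusted p under 0.05. That split of the calls depended on the scaling. With no normalization 30 were higher and 53 lower, and with scaling over bright miRNAs 262 were higher and 22 lower. In both of these fits limma gave the members the same SE, so the spread of a miRNA's own arrays did not enter. With scaling over all miRNAs 0 were higher and 2 lower. With 4 arrays, precision is limited throughout.

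The question put to these arrays was whether the 6 miRNAs differed in skin 24 hr after shikonin. None of the 6 passed the test, and their limma adjusted p over all 710 miRNAs lay between 0.134 and 0.680. All 6 had a log2 fold change below 0, as did 51.7% of all miRNAs. For 5 of the 6, miR-103, miR-107, miR-378, miR-365 and miR-378*, both shikonin arrays lay below both acetone arrays, against 26.8% of all 710 miRNAs, 43.7% of the 158 above background on all 4 arrays and 54.0% of those 158 that lie outside the repeat-rich families of miR-297, miR-466, miR-467 and of miR-669 (126 miRNAs). The median log2 fold change of the 6 was -0.49, against -0.0059 over all miRNAs, -0.13 over the 158 and -0.41 over the 126. For the 3 members among the 158 it was -0.67. Among bright miRNAs outside those families, such lower values with shikonin were thus common. The 5 include miR-378*, which was above background on no array. The count was 4 with no normalization and 1 with scaling over bright miRNAs. Under that scaling the median of the 6 was 0.23, and that of all 710 miRNAs was 0.77. At an unadjusted limma p under 0.05, 3 of the 6 were lower (miR-103, miR-107 and miR-378), against 11.0% of all miRNAs and 32.3% of the 158. Leaving out acetone replicate 1 put the median of the 6 at -0.32, and it lay at or below -0.48 when any other array was left out.

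**Figure D1:**
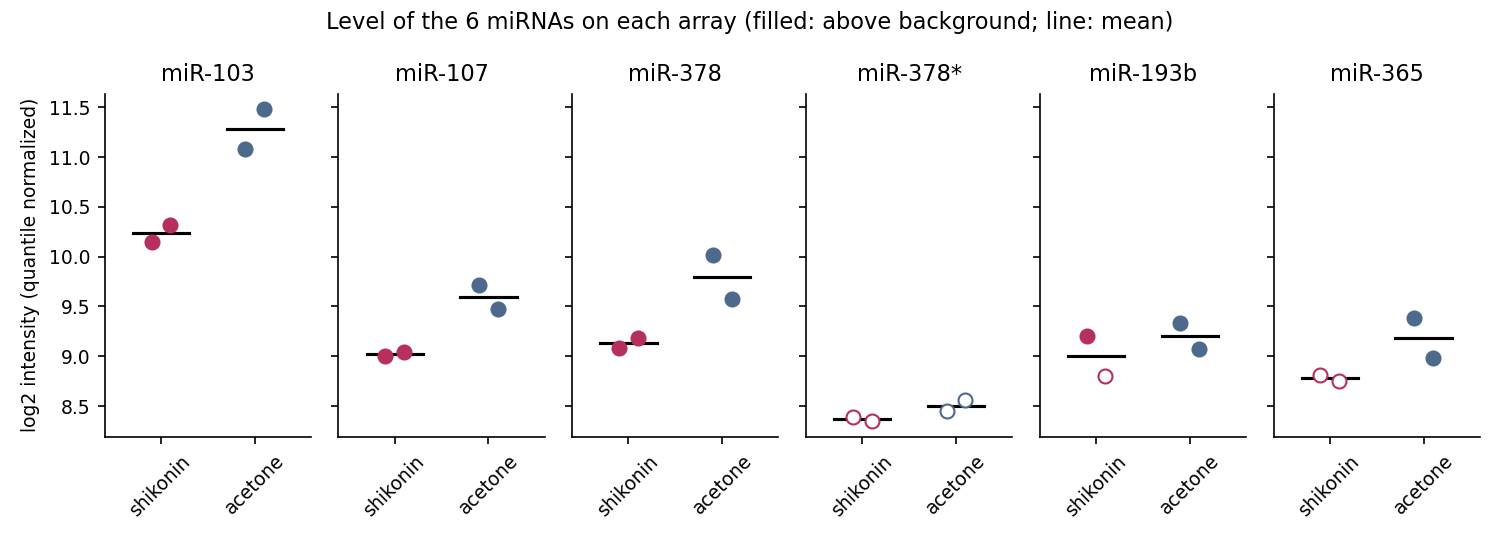
Quantile normalized log2 intensity of the 6 miRNAs (vertical axis) on the 2 shikonin arrays and the 2 acetone arrays, with filled points above background, open points not above it and a line at each group's mean. The groups overlap for miR-193b alone, and miR-378* is open on all 4 arrays.

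miR-103, the brightest of the 6, had the lowest fold change. Its raw intensity was 940 and 1200 on the shikonin arrays, against 2061 and 3761 on the acetone arrays. Both shikonin values were thus below both acetone values, and the acetone arrays lay farther apart than the shikonin arrays. Set against the background of each array, miR-103 was 2.83-fold above it on both shikonin arrays, and 6.69-fold and 10.2-fold above it on the acetone arrays. It was the 76th and 68th brightest miRNA of the shikonin arrays, whereas it ranked 41 and 32 on the acetone arrays. After quantile normalization the log2 intensity was 10.24 ± 0.12 with shikonin and 11.28 ± 0.28 with acetone (SD, n = 2 each), which is 2.07-fold lower with shikonin. It was the only one of the 6 at least 2-fold lower, as were 4.23% of all miRNAs and 16.5% of the 158.

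The log2 fold change of miR-103 was -1.05 (SE 0.17, 95% interval -1.53 to -0.56), with a limma p of 0.00390 and an adjusted p of 0.134. It was the 18th of all miRNAs by p. This precision depended on the variance prior. With a prior that follows intensity the SE of miR-103 was 0.65, at a limma p of 0.115 and an adjusted p of 0.372. Over all 710 miRNAs 3.52% had a fold change at or below that of miR-103, and 13.9% of the 158 above background on all arrays did. Leaving out any 1 array kept its log2 fold change between -1.25 and -0.85. The 8 spots of miR-103 ran from 360 to 1953 and from 928 to 1752 on the shikonin arrays, against 1512 to 3681 and 3073 to 4385 on the acetone arrays, so every spot of acetone replicate 2 was brighter than every shikonin spot. The lowest spot, on shikonin replicate 1, was the only one of miR-103 below its array's background threshold.

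miR-107, which has the seed of miR-103, was dimmer and had a smaller fold change. Its raw intensity was 472 and 596 on the shikonin arrays and 712 and 860 on the acetone arrays, with no overlap between the groups. It stood 1.42-fold and 1.41-fold above background with shikonin, and 2.31-fold and 2.34-fold with acetone. The normalized log2 intensity was 9.02 ± 0.03 with shikonin and 9.60 ± 0.17 with acetone (SD, n = 2 each). That gave a log2 fold change of -0.57 (SE 0.12, 95% interval -0.90 to -0.24), 1.49-fold lower with shikonin, at a limma p of 0.00864 and an adjusted p of 0.146.

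Because the 2 miRNAs differ at 1 base, their changes were compared within each array. The log2 intensity of miR-103 less that of miR-107 was 1.15 and 1.28 on the shikonin arrays and 1.36 and 2.01 on the acetone arrays. The groups did not overlap, and the log2 fold changes differed by -0.47, but an exact two-sided permutation test of 2 arrays against 2 cannot go below p = 0.333, which is the value it gave (adjusted p = 0.500 over 3 pairs of members compared in this way). The gap depended on the processing, and no background was subtracted from the dimmer miR-107. After normexp background correction the log2 fold changes were -1.18 for miR-103 and -0.83 for miR-107. In the deposited value table they were -1.41 and -1.37, and with no normalization -1.39 and -0.56. How far each miRNA binds the probe of the other was not tested.

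miR-378, the 3p arm of the Ppargc1b hairpin, was also lower on both shikonin arrays. Its raw intensity was 500 and 640 there, against 912 on each acetone array. This was 1.51-fold above background on both shikonin arrays, and 2.96-fold and 2.48-fold above it on the acetone arrays. The normalized log2 intensity was 9.13 ± 0.07 with shikonin and 9.80 ± 0.31 with acetone (SD, n = 2 each), 1.59-fold lower with shikonin. The log2 fold change of -0.67 (SE 0.18, 95% interval -1.17 to -0.17) had a limma p of 0.0209 and an adjusted p of 0.188, and ran from -0.89 to -0.45 when 1 array was left out.

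Its partner miR-378*, the 5p arm of the same hairpin, was above background on none of the 4 arrays. The raw intensity of miR-378* was 316 and 380 on the shikonin arrays and 300 and 388 on the acetone arrays, at 0.952 and 0.896 of background with shikonin and 0.974 and 1.05 with acetone. The normalized groups did not overlap, at 8.39 and 8.35 with shikonin and 8.45 and 8.56 with acetone. Since neither group was above background, no fold is given, and the log2 fold change of -0.13 (SE 0.09, adjusted p = 0.550) concerns values with no measured level. One spot of miR-378* on shikonin replicate 2 read 1080 while the other 7 read between 296 and 472. The arms were therefore not compared with each other, although this pair is counted among the 3 over which the p-values were adjusted.

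**Figure D2:**
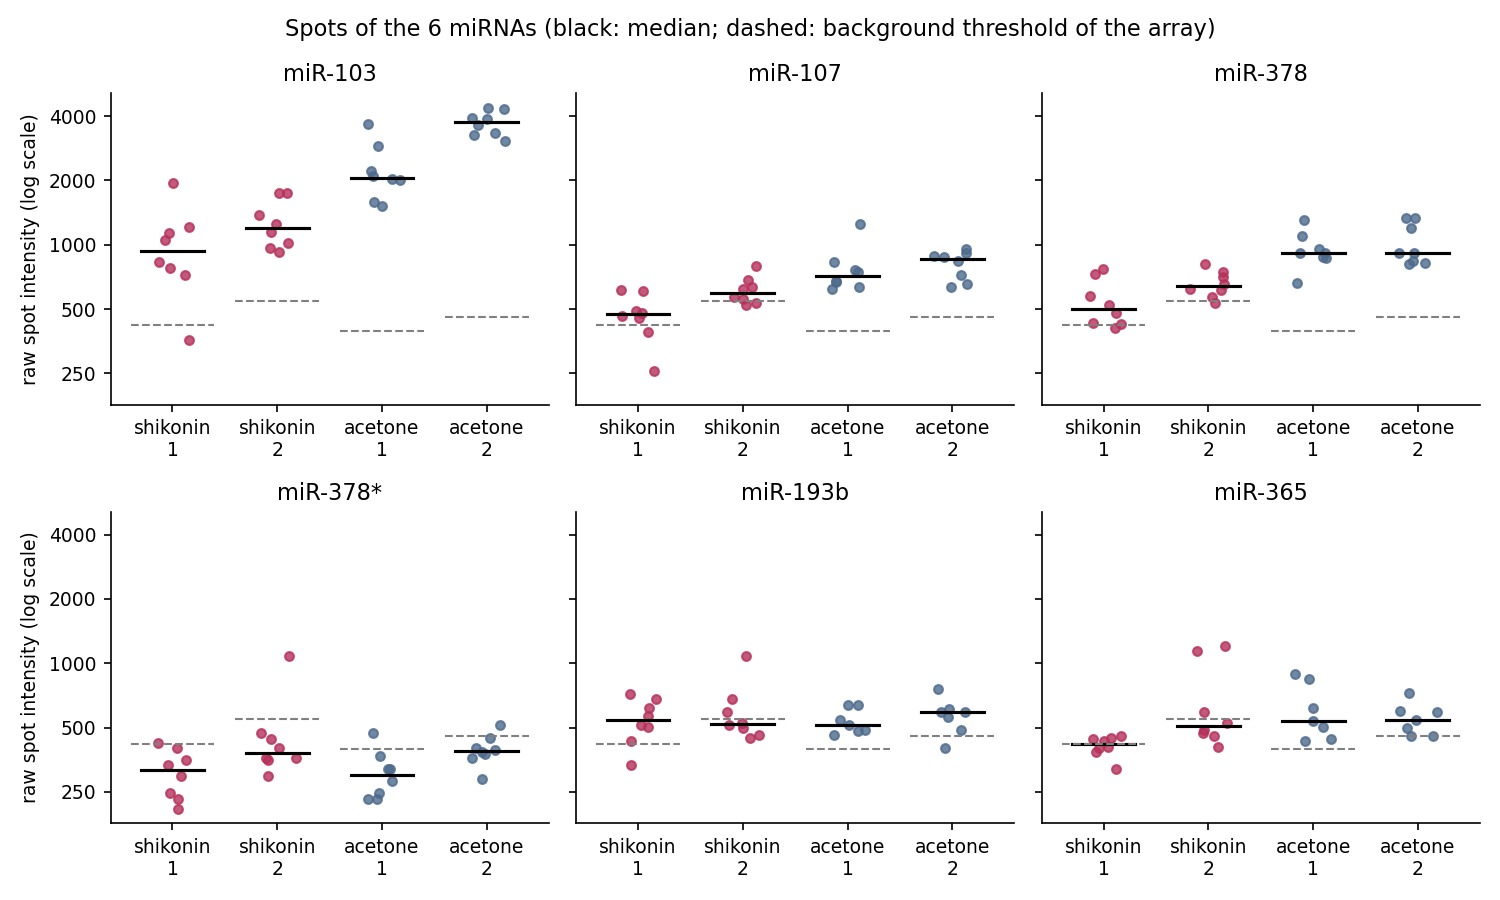
Raw intensity of each spot (vertical axis, log scale) of the 6 miRNAs on the 4 arrays, with a black line at the spot median and a dashed line at the background threshold of the array. The median of miR-103 lies above the threshold on all 4 arrays, with 1 spot below it on shikonin replicate 1, and the medians of miR-378* lie below it on all 4.

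miR-193b was the member whose groups overlapped. Its raw intensity was 540 and 520 on the shikonin arrays and 512 and 592 on the acetone arrays, and it was above background on 3 of 4 arrays, all but shikonin replicate 2. The normalized values were 9.20 and 8.80 with shikonin and 9.33 and 9.07 with acetone, so that shikonin replicate 1 lay between the acetone arrays. The log2 fold change was -0.20 (SE 0.19, 95% interval -0.73 to 0.33, adjusted p = 0.680). It was 0.0035 without shikonin replicate 2 and -0.40 without shikonin replicate 1, and it was -0.068 without acetone replicate 1. Its relative miR-193, which has the same seed, was above background on no array, so the seed family could be followed through miR-193b alone.

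miR-365, from the gene next to that of miR-193b, was near the limit of detection. Its raw intensity was 420 and 508 on the shikonin arrays, below their thresholds of 421 and 549, and 536 and 544 on the acetone arrays, above their thresholds of 397 and 457. It was therefore above background on both acetone arrays and on neither shikonin array, although shikonin replicate 1 lay just under its threshold. With only a bound for shikonin, the acetone mean of miR-365 was at least 1.25-fold above it on these arrays. This compares array means without their spread, and the interval of the fitted change, given below, includes 0. That bound sets the normalized mean of the acetone arrays against the higher, on each shikonin array, of the miRNA's own value and the lowest value above background. The measured normalized log2 intensity was 8.78 ± 0.04 with shikonin and 9.18 ± 0.29 with acetone (SD, n = 2 each). The fitted log2 fold change was -0.40 (SE 0.17, 95% interval -0.86 to 0.06, adjusted p = 0.344), and it was -0.20 without acetone replicate 1 and -0.61 without acetone replicate 2.

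The genes of miR-193b and miR-365 neighbour each other, but these arrays could not show whether the 2 miRNAs changed alike. The permutation test cannot go below p = 0.333. On the shikonin arrays miR-365 was not above background, and neither was miR-193b on replicate 2. The within-array difference of miR-193b less miR-365 was 0.39 and 0.05 on the shikonin arrays and -0.05 and 0.09 on the acetone arrays, which overlap (exact two-sided permutation p = 0.667, adjusted p = 0.667, difference of the log2 fold changes 0.20). Both miRNAs had 1 empty spot on each acetone array and none on the shikonin arrays, at the same position on both acetone arrays. Across all spots, 94 positions were empty on both acetone arrays and on no shikonin array, and 0 the other way round. Whether this bears on the 2 miRNAs was not tested.

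In the reported setting the fold changes of the 6 mostly followed their brightness. In order of their mean log2 intensity the log2 fold changes were -1.05 (miR-103), -0.67 (miR-378), -0.57 (miR-107), -0.20 (miR-193b), -0.40 (miR-365) and -0.13 (miR-378*). This order broke only between miR-193b and miR-365. In the deposited value table the brightest, miR-103, was not the lowest, with miR-378 at -1.69, miR-103 at -1.41 and miR-107 at -1.37. No background was subtracted in the reported values, which understates the fold of a dim miRNA. The intensity above the array's background was 608 and 776 for miR-103 with shikonin against 1753 and 3393 with acetone. It was 140 and 172 for miR-107 with shikonin against 404 and 492 with acetone. For miR-378 it was 168 and 216 with shikonin against 604 and 544 with acetone. On this scale, before any normalization, the groups of these 3 miRNAs remained apart. After normexp background correction the log2 fold changes were -1.18 for miR-103, -0.83 for miR-107 and -0.92 for miR-378, and none of these 3 passed (limma adjusted p from 0.0815 to 0.129).

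**Figure D3:**
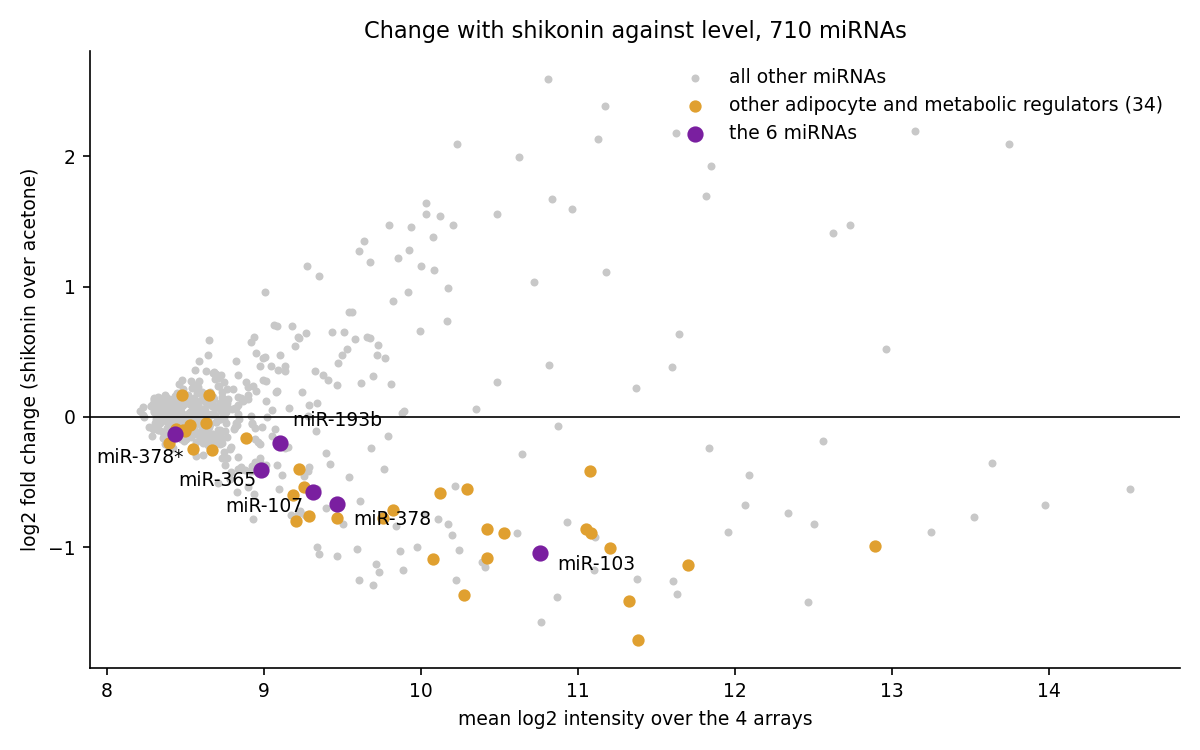
Log2 fold change of shikonin over acetone (vertical axis) against the mean log2 intensity over the 4 arrays (horizontal axis) for 710 miRNAs, with the 6 members in purple and 34 other regulators of adipocytes and metabolism in orange. The 6 lie at or below 0, and miR-103, at -1.05, is the farthest from 0 of them.

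Profiles across the 4 arrays were compared by the root mean square (RMS) difference of centred log2 intensities, over the 155 other miRNAs above background on all 4 arrays, as a description on 4 arrays only. The profiles nearest to miR-103 were those of miR-191 (RMS 0.13) and of miR-20a (0.15), against a median of 0.57 over the 155. Nearest to miR-107 were miR-130b (0.052) and miR-185 (0.074), and nearest to miR-378 were miR-23b (0.084) and miR-30c (0.096). miR-193b lay nearest to miR-1892 (0.038) and miR-1937c (0.051), and miR-365 to miR-322 (0.028), whose seed is that of miR-16, and to miR-185 (0.057). For miR-378*, which had no level above background, the nearest were miR-194 and miR-674 (both 0.094). Among the members themselves miR-107 and miR-378 were the most alike pair (0.087), and miR-103 was 0.33 to 0.53 from each of the others.

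The other miRNAs known to act in adipocytes or in lipid and insulin metabolism were followed as a list of 34, of which 24 were above background on at least 2 arrays. Of these 34, 0 passed in limma in either direction (smallest adjusted p = 0.128). At an unadjusted limma p under 0.05 there were 16 lower and 0 higher, against 11.0% and 6.62% of all miRNAs. The groups did not overlap for 24 that were lower and 2 that were higher, against 26.8% and 22.4% of all miRNAs and, for lower ones, 54.0% of the 126 bright ones outside the repeat-rich families. The median log2 fold change of the 34 was -0.65. It was -0.42 without acetone replicate 1. Scaling over bright miRNAs put the median of all 710 at 0.77. Under it the count of lower ones without overlap was 11 and the median of the 34 was -0.14.

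miRNAs that promote the formation of adipocytes and miRNAs that restrain it had values mostly on the same side of 0, with 1 exception, among those that promote it. Of 11 that promote it, 10 had a log2 fold change below 0, with a median of -0.76. miR-26a, the brightest of them and a promoter of human adipocyte differentiation, had log2 intensities of 12.34 and 12.45 on the shikonin arrays and 13.61 and 13.17 on the acetone arrays (log2 fold change -0.99, SE 0.18, limma adjusted p = 0.134). miR-20a, of the miR-17-92 cluster, gave -1.09 (SE 0.19), the lowest value among them, while miR-210, which is induced by low oxygen, had the value -0.40 (SE 0.15), the highest among those above background on at least 2 arrays.

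Of 12 that restrain adipocyte formation, 12 had a log2 fold change below 0, with a median of -0.65. miR-27a and miR-27b, which repress Pparg, had log2 fold changes of -1.13 (SE 0.20) and -1.41 (SE 0.33), with 11.13 on both shikonin arrays and 12.53 and 12.01 on the acetone arrays for miR-27a. The highest value above background on at least 2 arrays was that of miR-221 at -0.16 (SE 0.09). The members thus stood beside both promoting and restraining miRNAs, and no miRNA of either list passed the test.

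Of 7 miRNAs of brown or beige fat, 3 were above background on no array, among them miR-455, which is induced by BMP7 in brown adipocytes, and miR-196a. Those on 2 or more arrays were miR-203 (-1.71, SE 0.64), miR-182 (-0.77, SE 0.36), miR-133a (-0.78, SE 0.38) and miR-133b (-0.79, SE 0.34), which are also known from epidermis or muscle. Among 4 miRNAs of lipid and insulin metabolism miR-29a alone was above background, at 10.47 and 10.77 on the shikonin arrays and 11.62 and 11.33 on the acetone arrays (log2 fold change -0.86, SE 0.17, adjusted p = 0.143). miR-33, from an intron of the cholesterol regulator Srebf2, and the liver miRNA miR-122 were above background on no array. Of these 4, 1 is also among the 35 miRNAs that set the background, so its place below the threshold was nearly fixed beforehand.

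The seed relatives had small fold changes in the median. The 8 of them, of which 6 have the seed of miR-16 and one is miR-193, had a median log2 fold change of -0.11. Of the 8, 7 were above background on all 4 arrays, and 6 had a log2 fold change below 0. Without overlap 4 were lower and 0 higher, against 26.8% and 22.4% of all miRNAs. Among the 158 the share of lower ones was 43.7% and among the 126 it was 54.0%, so 4 of 8 was near these shares. The log2 fold change of miR-16 was -0.77 (SE 0.34), from 12.67 and 13.61 on the shikonin arrays and 13.91 on both acetone arrays. That of miR-15b was 0.38 (SE 0.46), from 11.19 and 12.40 on the shikonin arrays and 11.20 and 11.62 on the acetone arrays. None of these passed.

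Markers of other skin cells were lower too on the shikonin arrays in several lists, and none passed the test. The counts without overlap in these lists stand against 26.8% lower and 22.4% higher among all miRNAs, 43.7% lower among the 158 above background on all 4 arrays and 54.0% lower among the 126. Sums of intensity given below include background, since none was subtracted. The 35 miRNAs that set the background summed to 12634 and 12830.5 on the shikonin arrays and 12728 and 12623.5 on the acetone arrays. The summed normalized intensity of the 6 was 3565 and 3590 on the shikonin arrays and 5712 and 5752 on the acetone arrays. That of 7 keratinocyte miRNAs was 7318 and 3635 with shikonin and 13121 and 11401 with acetone, and 7 of 7 were lower without overlap (median log2 fold change -1.05). The 7 fibroblast miRNAs summed to 8952 and 12789 with shikonin and 16130 and 13957 with acetone, and 6 of 7 were lower without overlap (median -0.99), while miR-214 gave 1.11 (SE 0.57). For 8 striated muscle miRNAs, carried by the muscle sheet under mouse skin, the sum was 4833 and 5820 with shikonin and 11882 and 6868 with acetone. Without overlap 5 of 8 were lower and 2 higher (median -0.47), a share of lower ones near that of the 126. Of these 8, however, only 3 were above background on all 4 arrays, and 3 were above it on none.

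The 2 endothelial miRNAs summed to 1804 and 1799 with shikonin and 4443 and 2972 with acetone, with miR-126-3p at -1.17 (SE 0.24) and miR-126-5p above background on no array. The 7 leukocyte miRNAs overlapped in sum, at 4209 and 5768 with shikonin and 5751 and 5311 with acetone, and 3 of 7 were lower without overlap (median -0.28), which is near the share among the 158. The lowest was miR-146a at -1.07 (SE 0.26). The 2 red blood cell miRNAs overlapped too, at 817 and 961 with shikonin and 1022 and 859 with acetone, and miR-144 was above background on no array. The part of these cell types in the values of the 6 miRNAs was not tested. In whole skin, fewer cells of a type and less of a miRNA in each cell cannot be told apart.

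**Figure D4:**
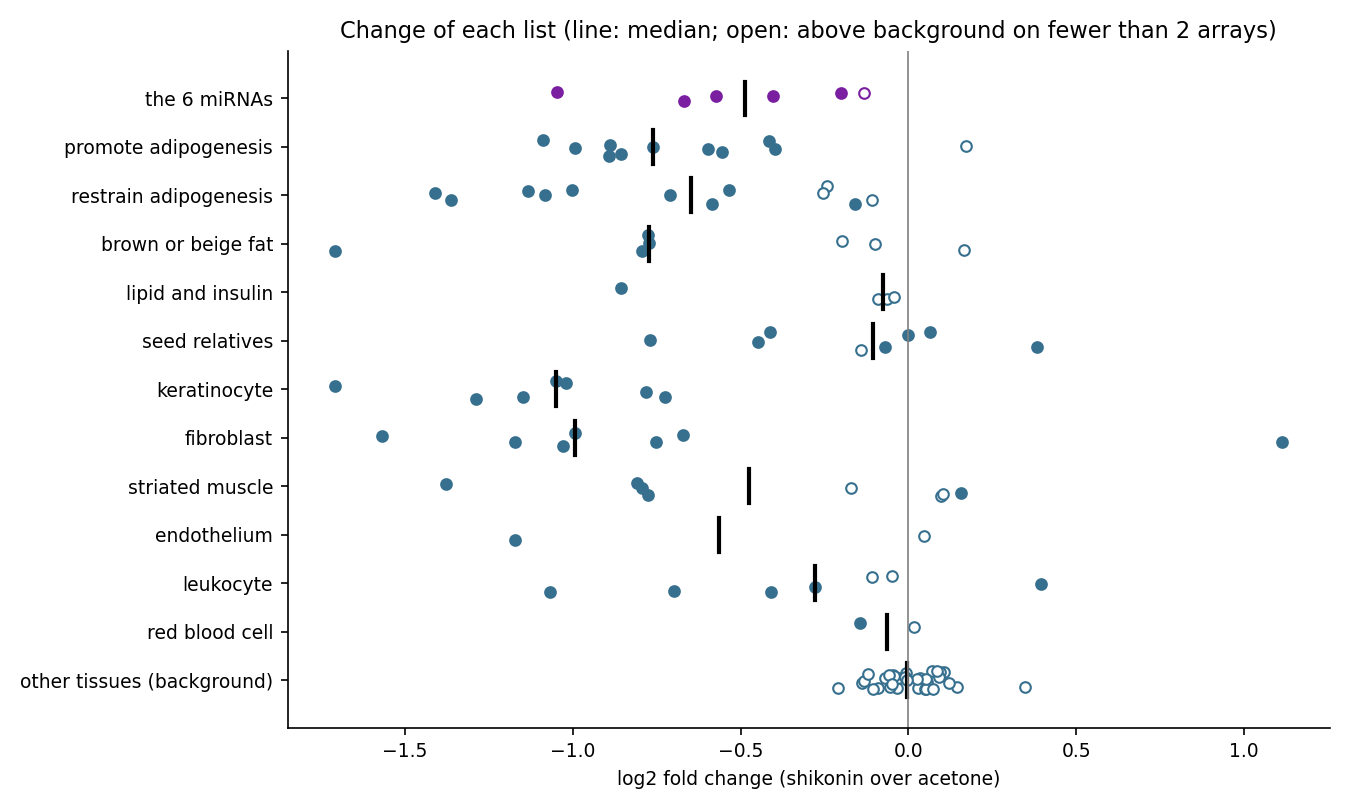
Log2 fold change of shikonin over acetone (horizontal axis) of each miRNA of the lists, with a line at the list's median and open points for miRNAs above background on fewer than 2 arrays. The 6 miRNAs have a median of -0.49, the keratinocyte and fibroblast lists -1.05 and -0.99, and the miRNAs of other tissues -0.0049.

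The fold changes of miR-103 and miR-378 kept their direction under each of the 16 alternative settings run for them, but with scaling over bright miRNAs that of miR-378 was close to 0, at -0.061 (SE 0.35, limma adjusted p = 0.866). Those of miR-107, miR-365, miR-193b and miR-378* did not keep it. In the deposited log2 value table of the authors, miR-103 was at 9.67 and 9.74 on the shikonin arrays and 10.47 and 11.77 on the acetone arrays. miR-378 was at 7.82 and 8.01 with shikonin and 10.05 and 9.16 with acetone in that table, a log2 fold change of -1.69, and miR-107 was at 7.62 and 7.72 with shikonin and 9.06 and 9.01 with acetone. miR-193b overlapped there as well, at 9.38 and 7.03 with shikonin and 8.28 and 7.93 with acetone. Without any normalization miR-103 passed (log2 fold change -1.39, limma adjusted p = 9.74e-04), and no other member passed under any alternative. In that fit all 6 had the same SE, 0.34, so the spread between the arrays of miR-103 itself did not enter.

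**Figure D5:**
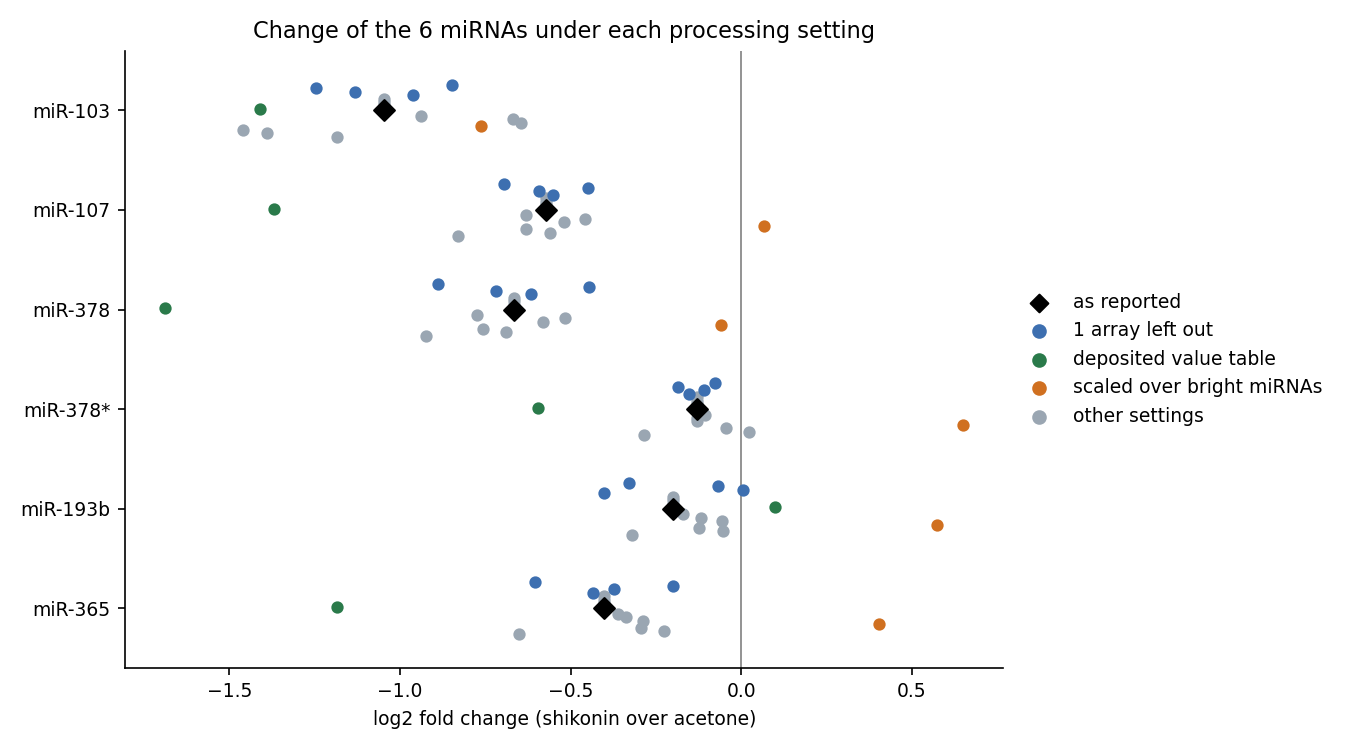
Log2 fold change of shikonin over acetone (horizontal axis) of the 6 miRNAs under the reported setting (black diamond) and each alternative (points, spread vertically for legibility). miR-103 stays between -1.46 and -0.65, and scaling over bright miRNAs puts miR-107, miR-365, miR-193b and miR-378* above 0.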

How the data were processed

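RNA of 2 shikonin-treated and 2 acetone-treated skin samples was hybridized by the authors to a Geniom biochip, on which a captured miRNA primes an extension with biotinylated nucleotides. Groups and replicate numbers came from the sample titles. Raw intensity of every spot, on a linear scale and without background columns, was deposited by the authors. They also deposited log2 values, 1 for each miRNA on each array, whose columns do not share one distribution although quantile normalization is named. For the scanning and spot software, the name was not given in the sources used here.

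Spot medians (empty spots left out) were quantile normalized, set to at least 1 and put on the log2 scale, so equal ranks on a pair of arrays give equal values. Testing used limma 3.58.1 in R 4.3.3 (shikonin over acetone, lmFit, eBayes, two-sided, Benjamini-Hochberg over 710 miRNAs, threshold 0.05), with code tested on simulated data. Members and lists were chosen with earlier results of these data known, so lists got no test. Named miRNAs were the 6, the brightest, highest and lowest above background on 2 arrays in each list, and the 2 nearest profiles of each member. Further names in the text were picked with their values in view. Alternatives covered background, normalization, spot summary, filter, variance prior, replicate block and each array left out. RefSeq (GRCm38.p6) gave sequences and chromosomes, and the deposited tables name no genome build.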

Additional observations from a re-analysis of the deposited data

How the results depend on the processing

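Of 95 values of the 6 miRNAs under 16 alternatives, 88 lay below 0 and 1 passed. The value that passed, of miR-103 with no normalization, came from a fit in which the 6 had the same SE (0.34). The same held with scaling over bright miRNAs (SE 0.35), so each miRNA's own spread did not enter under these settings. The count of calls among all miRNAs, 2 as reported, was 83 with no normalization (30 higher, 53 lower), 284 with scaling over bright miRNAs (262 higher, 22 lower), 38 with an intensity trend and 1 with only miRNAs above background on at least 2 arrays. In limma it was 0 with cyclic loess (115 at an unadjusted p under 0.05), the mean of the spots (126), the deposited value table (23) and the replicate block (116), and 0 with any 1 array left out (66 to 107), which leaves 1 residual degree of freedom. Sample titles state no pairing. Same-numbered arrays deviated in opposite directions (r = -0.28). With 2 arrays in a group, crossed arrays then deviate in the same direction by construction, so this cannot show whether samples were paired. Crossed pairing, chosen after seeing the data, gave 35 calls. The block changed no call among the 6. The median of the 6, -0.49, was -0.74 after normexp, -1.28 in the deposited value table, 0.23 with scaling over bright miRNAs, and -0.65 to -0.32 with 1 array left out. The count of members lower without overlap, 5, was 1 with scaling over bright miRNAs. With 1 array left out this count is not comparable, since 2 arrays against 1 overlap less often by construction. That scaling moved the median of all miRNAs to 0.77 and put miR-107 at 0.067, miR-193b at 0.57, miR-365 at 0.40 and miR-378* at 0.65. Relative to that median they were at -0.70, -0.20, -0.37 and -0.12. miR-378* was at 0.022 with no normalization, and miR-193b at 0.10 in the value table and from -0.40 to 0.0035 with 1 array left out. The cause of these shifts was not tested. Signal close to background limits miR-365, miR-193b and miR-378*.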
